A study of Mus musculus with 6 samples.

Results

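The genes described here are 9 genes of the path from a neural progenitor to a young neuron, namely the proneural factors *Neurog1* and *Neurog2*, the progenitor filament gene *Nes*, the microtubule genes *Dcx*, *Tubb3*, *Stmn2* and *Map2*, and the RNA-binding genes *Elavl3* and *Elavl4*. The list was given by name, with earlier results of these data known, each symbol was matched to an Ensembl identifier, and all 9 were found among the 35565 genes of the count table. They were measured by bulk RNA-seq in mouse gastruloids, which are aggregates of mouse embryonic stem cells (mESCs) that lay down a body axis in culture. Both groups came from the mESC line TBV2 (strain 129/SvP), had grown as gastruloids to day 5 and, per the study's methods, had received a pulse of CHIR99021, a GSK3 inhibitor that activates WNT signalling. The 3 Control (NT) libraries carried no knockdown of the long non-coding RNA *T-UCstem1* (the labels give their genotype as WT, whereas the study names its control as non-targeting cells), and the 3 KD-1 libraries came from 1 knockdown clone. Each group therefore stands for 1 line, and a difference between the groups cannot be told apart from a difference between these lines. The series' text calls the libraries biological replicates without saying whether they were cultured apart, so the p-values below measure the spread between these libraries only. The knockdown was not checked in these libraries, since no row was taken as *T-UCstem1*.

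Neurons arise when basic helix-loop-helix (bHLH) proneural factors such as NEUROG1 and NEUROG2 bind E-boxes, short DNA motifs with the letters CANNTG, and switch on later bHLH factors. Notch signalling holds the neighbouring progenitors back, and these keep Nestin, the intermediate filament protein encoded by *Nes*. The young neuron then makes its own microtubule proteins, among them doublecortin, class III beta-tubulin, stathmin 2 and MAP2, and the neuronal ELAVL proteins, which stabilize and splice neuronal mRNAs.

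The libraries held 20982249, 34694406 and 56674906 counts in Control and 41180012, 42407550 and 85561026 in KD-1, and below the 3 values of a group always follow this order, from the lowest to the highest depth. Levels are given in CPM, that is counts scaled to the library size, with TMM normalization. A count of 0 allowed a level of up to 0.143 CPM in the shallowest library and up to 0.0351 CPM in the deepest. These limits cover counting error only and were computed without TMM normalization. Mitochondrial genes took between 6.15% and 7.62% of the counts. Of the markers of gastruloid tissue, *T* did not pass the test (log2 fold change -0.31) and the posterior gene *Hoxb9* had 113 CPM in Control and 133 in KD-1, whereas *Meox1*, a gene of the somites, fell from 371 CPM to 0.423. The endoderm genes *Sox17* and *Foxa2* were too low to test.

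Of the 9 genes, 7 were called higher in KD-1 and 0 were called lower, where a call takes an adjusted p under 0.05 in edgeR's quasi-likelihood test and a change of more than 1.5-fold. Among all 15110 genes tested, 19.7% were called higher and 18.1% were called lower. All 9 genes passed the filter on low counts, but *Dcx*, *Neurog1* and *Neurog2* passed it through the KD-1 libraries alone. The 7 genes that rose were *Neurog1*, *Dcx*, *Tubb3*, *Stmn2*, *Map2*, *Elavl3* and *Elavl4*. *Neurog2* did not pass the test, and *Nes* was lower in KD-1 by less than the 1.5-fold threshold. In 8 of the 9 genes every KD-1 library lay above every Control library, as it did in 35.3% of all genes tested. In the remaining gene, *Nes*, every KD-1 library lay below every Control library. The summed level of the 9 genes ran from 142 to 153 CPM in Control and from 406 to 426 CPM in KD-1. Of this sum *Nes* gave 115 CPM on average in Control and 84.7 CPM in KD-1. In bulk RNA, more cells that express a gene and more RNA of it in each cell cannot be told apart.

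**Figure D1:**
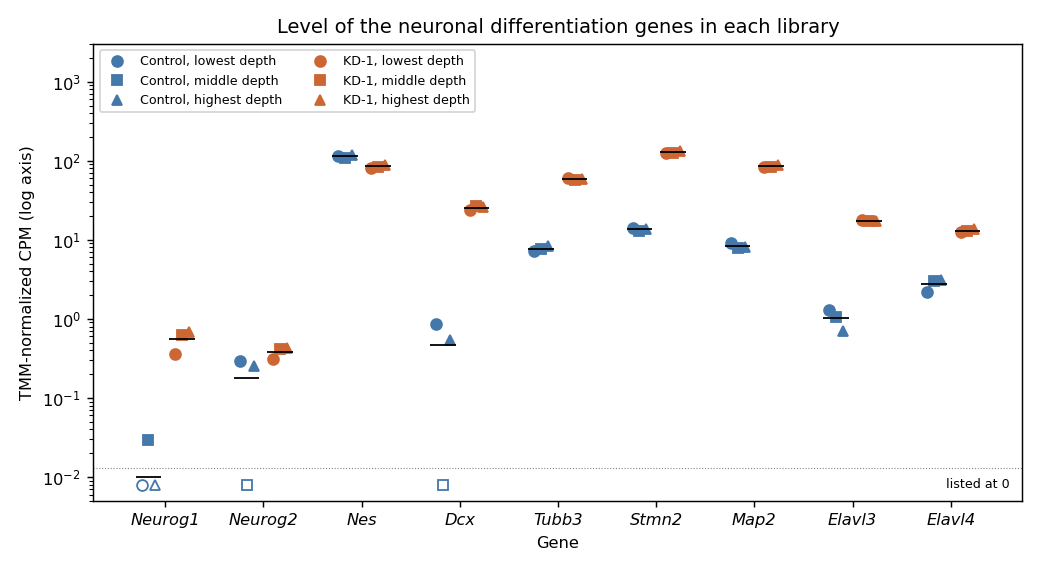
TMM-normalized CPM (log axis) of the 9 genes in each library, with the 3 Control libraries in blue, the 3 KD-1 libraries in orange, the shape giving the depth and the short lines the group means. Open symbols under the dotted line are libraries listed at 0, and *Stmn2* moves from 13.5 to 128 CPM, whereas *Nes* moves from 115 to 84.7 CPM.

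The proneural factors were the least abundant of these genes. *Neurog1* (ENSMUSG00000048904, GRCm39 chromosome 13, from 56398291 to 56399976, minus strand), which starts sensory neuron formation in the embryo, had 0, 1 and 0 counts in Control and 15, 27 and 60 counts in KD-1. It was thus almost unseen in Control and seen in every KD-1 library, at 0.358, 0.621 and 0.691 CPM. The groups did not overlap and the test called it higher (edgeR adjusted p = 0.00045). With 102 counts against 1 the ratio of summed counts, scaled to depth, was 65.8, with an exact 95% counting interval from 11.5 to 2624, so the size of the rise is not known within an order of magnitude.

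*Neurog2* (ENSMUSG00000027967, chromosome 3, from 127426448 to 127429280, plus strand), the related factor of cortical and spinal progenitors, had 0.289, 0 and 0.253 CPM in Control and 0.310, 0.414 and 0.426 CPM in KD-1. The KD-1 libraries lay above the Control libraries, but the lowest of them by only a few hundredths of a CPM. Its log2 fold change of 1.11 (SE 0.73, 95% interval -0.56 to 2.77, n = 3 and 3) did not pass the test (edgeR adjusted p = 0.21). The counts behind it were 6, 0 and 14 in Control and 13, 18 and 37 in KD-1, and at these counts the interval spans both no change and a rise of several fold. The 0 is in the Control library of middle depth, as is that of *Dcx* below. With other settings or a library left out, the log2 fold change of *Neurog2* ran from 0.54 to 1.87.

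Other transcription factors of the neuronal path were taken as a list of 30, of which 23 passed the filter. Of these, 16 were called higher and 5 lower, with a median log2 fold change of 2.47 against -0.01 over all genes tested. With at least 10 counts required in every library 10 of the list were tested, 5 called higher and 3 lower. The rises with the largest fold were *Nhlh2*, *Neurod4* and *Nhlh1*, which encode bHLH factors that act after the neurogenins. *Nhlh2* had 3, 0 and 1 counts in Control and 421, 514 and 961 in KD-1 (log2 fold change 8.12, SE 0.40, edgeR adjusted p = 6.5e-07). *Neurod4* went from 0.170 to 9.11 CPM and *Nhlh1* from 0.278 to 16.8 CPM, each with a log2 fold change of 5.70. The bHLH factors *Neurod1* (2.47) and *Neurog3* (2.10) rose as well on the log2 scale. The 3 deepest falls were those of *Mnx1* (-3.98), a motor neuron factor, *Lhx1* (-3.22), which also marks intermediate mesoderm, and *Isl1* (-1.30), which also marks cardiac and motor neuron precursors. *Isl1* lost its call without the KD-1 library of lowest depth (-1.13, edgeR adjusted p = 0.071) or of highest depth (-1.15, 0.085). *Myt1l* was at 0 in all 3 Control libraries, had 8, 3 and 20 counts in KD-1 and was too low to test, and *Neurod6* was at 0 in all 6 libraries.

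*Nes* (ENSMUSG00000004891, chromosome 3, from 87878385 to 87887758, plus strand) had the highest level of the 9 genes in Control, at 116, 110 and 119 CPM. In KD-1 it had 81.1, 83.8 and 89.1 CPM, so all KD-1 libraries lay below all Control libraries. The log2 fold change was -0.44 (SE 0.06, 95% interval -0.58 to -0.30, n = 3 and 3, edgeR adjusted p = 0.00028), that is 1.35-fold lower, which passed the p threshold but not the 1.5-fold threshold. Without a fold threshold it would count as lower, as would 32.6% of all genes tested.

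The list of 22 other neural progenitor genes did not move one way. Of 21 tested, 10 were called higher and 6 lower, with a median log2 fold change of 0.40. *Fabp7*, a fatty acid binding protein of radial glia, rose from 16.3 to 243 CPM (log2 fold change 3.90), and the Notch effector *Hes5* rose from 1.27 to 8.44 CPM (2.67), although its Control counts of 7, 84 and 55 were uneven. *Lix1* rose as well (2.39). *Dbx1*, a factor of spinal progenitors, fell (-2.16), as did the dorsal factor *Pax3* (-1.09) and *Hoxb8* (-0.93), which gives posterior identity. *Pax3* also stands on the list of somite genes below.

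*Dcx* (ENSMUSG00000031285, chromosome X, from 142638838 to 142716307, minus strand) encodes doublecortin, which binds the microtubules of migrating young neurons. It had 18, 0 and 30 counts in Control and 1013, 1155 and 2260 counts in KD-1. In normalized levels these were 0.868, 0 and 0.541 CPM against 24.2, 26.6 and 26.0 CPM, with no overlap and a wide spread within Control (coefficient of variation 93.3%) beside a narrow one in KD-1 (4.90%). The log2 fold change was 5.86 (SE 0.41, 95% interval 4.93 to 6.80, edgeR adjusted p = 5.3e-06), and the rise was the 77th in size of all genes tested. The size depends on the 0 in the Control library of middle depth, since the log2 fold change was 5.32 without that library, 6.26 and 6.22 without the Control library of lowest or of highest depth, and 7.04 with limma-voom. That library was at 0, while the other Control libraries each had at least 3 counts, for 366 genes. There were 275 such genes in the shallowest Control library and 28 in the deepest, and the KD-1 libraries were not part of this count. By this rule *Dcx* and *Neurog2* are both among the 366. With at least 10 counts in each of the other Control libraries, 46 genes were at 0 in the library of middle depth. There were 43 such genes in the shallowest Control library and 6 in the deepest. What gave rise to these zeros was not tested.

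*Tubb3* (ENSMUSG00000062380, chromosome 8, from 124138163 to 124150092, plus strand), the neuronal beta-tubulin, had 7.23, 7.64 and 8.28 CPM in Control and 59.9, 57.7 and 58.3 CPM in KD-1. Both groups were tight and far apart. It rose 7.54-fold (log2 fold change 2.91, SE 0.08, 95% interval 2.74 to 3.09, edgeR adjusted p = 2.8e-08).

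*Stmn2* (ENSMUSG00000027500, chromosome 3, from 8574151 to 8626667, plus strand) encodes stathmin 2, a regulator of microtubule growth in axons. It had 13.94, 13.03 and 13.56 CPM in Control and 126, 126 and 132 CPM in KD-1. With coefficients of variation of 3.39% and 2.66% it was the steadiest of the genes in Control, and it rose 9.47-fold (log2 fold change 3.24, SE 0.06, 95% interval 3.10 to 3.38, edgeR adjusted p = 6.3e-09).

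*Map2* (ENSMUSG00000015222, chromosome 1, from 66214327 to 66481746, plus strand) encodes a protein that bundles microtubules in dendrites. It had 9.07, 7.90 and 8.09 CPM in Control and 84.3, 84.2 and 88.4 CPM in KD-1. The groups were again far apart, and the rise was 10.3-fold (log2 fold change 3.37, SE 0.08, 95% interval 3.19 to 3.54, edgeR adjusted p = 1.5e-08). *Map2* shares 124 exon bases with *Gm10558* on the opposite strand in the GENCODE vM39 annotation, and whether the counting used strand is not given in the sources used here.

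*Map2* is the only one of the 9 genes on chromosome 1, where genes as a whole were shifted. The 871 genes tested there had a median log2 fold change of 0.49 and 40.2% were called higher, whereas the 13609 genes on the other autosomes had a median of -0.05 and 18.0% called higher. The rise of *Map2* was the 29th in size among the 871, and the 6th among the 725 with at least 10 counts in every library. Of the tested genes near it, picked after their values were seen, *Idh1* (0.31) was not called, and *Pikfyve* (0.79), *Rpe* (1.37) and *Unc80* (4.15), a subunit of a neuronal sodium leak channel, were called higher. How much of the rise of *Map2* goes with the shift of its chromosome was not tested. Among the list genes named in this report, *Nhlh1*, *Cxcr4*, *Tfap2b* and *Tfcp2l1*, which rose, also lie on this chromosome. So do *Pax3* and *Des*, which fell. The part of the shift in their changes was not tested either.

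The neuronal ELAVL genes differed from each other in Control. *Elavl3* (ENSMUSG00000003410, chromosome 9, from 21926301 to 21963324, minus strand) encodes HuC, a marker of newborn neurons. It had 1.30, 1.07 and 0.704 CPM in Control and 17.7, 17.3 and 17.5 CPM in KD-1. The Control libraries were uneven (coefficient of variation 29.4%) and the KD-1 libraries nearly alike (0.923%). It rose 18.2-fold (log2 fold change 4.19, SE 0.18, 95% interval 3.78 to 4.60, edgeR adjusted p = 3.1e-07). *Gm49318*, which shares 256 exon bases with it on the same strand, was at 0 in all 6 libraries, and reads of these bases could have been given to either gene.

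*Elavl4* (ENSMUSG00000028546, chromosome 4, from 110060810 to 110209142, minus strand) encodes HuD, which acts in axon growth. It had 2.17, 3.02 and 3.10 CPM in Control and 12.5, 12.8 and 13.6 CPM in KD-1. The groups did not overlap, and it rose 4.59-fold (log2 fold change 2.20, SE 0.14, 95% interval 1.88 to 2.52, edgeR adjusted p = 3.0e-06), which was the smallest of the 7 rises. It shares 211 exon bases with *Gm33070* on the opposite strand.

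The promoters of these 2 genes are shown because they alone, of the 8 genes with a promoter entry in RefSeq (GRCm38.p6), held E-boxes in the 250 bases before a transcription start. The *Elavl3* window (chr9:22052024-22052273, minus strand) and the *Elavl4* window (chr4:110287528-110287777, minus strand) are given 5′ to 3′ with the E-boxes in capitals, beside those of *Tubb3* (chr8:123411303-123411552, plus strand) and *Dcx* (chrX:143933220-143933469, minus strand), which rose as well and held no E-box.
Elavl3: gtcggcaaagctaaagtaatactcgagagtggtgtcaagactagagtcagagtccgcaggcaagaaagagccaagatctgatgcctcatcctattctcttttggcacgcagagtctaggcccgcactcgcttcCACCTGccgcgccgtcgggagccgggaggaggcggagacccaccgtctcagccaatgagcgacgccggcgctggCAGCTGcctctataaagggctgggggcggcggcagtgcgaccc
Elavl4: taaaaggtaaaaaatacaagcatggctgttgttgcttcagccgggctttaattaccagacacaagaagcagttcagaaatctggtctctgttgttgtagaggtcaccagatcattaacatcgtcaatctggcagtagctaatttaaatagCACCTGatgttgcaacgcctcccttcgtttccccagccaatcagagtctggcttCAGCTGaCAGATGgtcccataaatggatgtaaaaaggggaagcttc
Tubb3: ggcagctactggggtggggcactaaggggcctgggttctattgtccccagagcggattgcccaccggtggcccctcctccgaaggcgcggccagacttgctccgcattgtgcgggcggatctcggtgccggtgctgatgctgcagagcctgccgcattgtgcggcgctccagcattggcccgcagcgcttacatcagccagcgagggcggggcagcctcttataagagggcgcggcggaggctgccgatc
Dcx: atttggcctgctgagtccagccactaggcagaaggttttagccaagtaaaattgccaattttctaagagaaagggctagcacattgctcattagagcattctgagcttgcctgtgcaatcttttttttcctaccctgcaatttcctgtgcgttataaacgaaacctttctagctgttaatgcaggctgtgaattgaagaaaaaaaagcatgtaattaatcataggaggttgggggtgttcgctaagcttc

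In the *Elavl3* window CACCTG lay 117 bases and CAGCTG 43 bases before the start. In the *Elavl4* window CACCTG lay 100, CAGCTG 46 and CAGATG 39 bases before the start. The latter 2 motifs do not overlap and have 1 base between them. *Elavl4* had 3 more windows, of which 1 largely repeats these bases, 1 holds a CATCTG 101 bases before its start and 1 holds none. The motif searched, CANNTG, reads the same on both strands, and 66.2% of the 32851 RefSeq promoter windows held it, CAGCTG being in 13% and CAGATG in 14.4%. A match is a description of the letters and not of a bound site. The base composition of the windows ranged widely, from 41.6% G and C in the *Dcx* window and 44.0% in the *Elavl4* window to 81.2% in that of *Map2*, with a median of 52.4% over all windows. *Stmn2* had no window.

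Compared per length, as mean CPM per kilobase of annotated exons, the order of the genes changed between the groups. The length joins the exons of all annotated transcripts of a gene, and which transcripts were expressed was not measured. The order of genes close in level therefore depends on this choice of length. In Control *Nes* led with 17.9 CPM per kilobase, followed by *Tubb3* (2.40) and *Stmn2* (2.34), whose libraries overlapped. *Elavl4* (0.496) and *Map2* (0.402) came next and also overlapped, and *Elavl3* (0.148), *Neurog2* (0.0705), *Dcx* (0.0372) and *Neurog1* (0.00585) ended the order, each overlapping its neighbour. In KD-1 *Stmn2* led with 22.1 CPM per kilobase, ahead of *Tubb3* (18.3) and *Nes* (13.2). There *Map2* (4.12), *Elavl3* (2.54), *Elavl4* (2.33), *Dcx* (2.02), *Neurog1* (0.330) and *Neurog2* (0.150) followed, and no gene's libraries overlapped those of its neighbour in the order. *Nes* thus moved from the head of the order to the third place and *Elavl3* from below *Elavl4* to just above it.

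**Figure D2:**
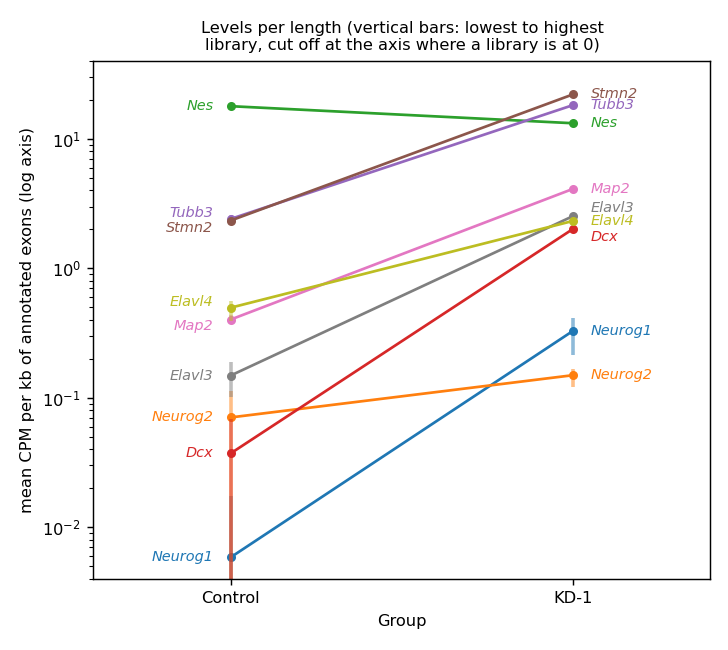
Mean CPM per kilobase of annotated exons (log axis) of the 9 genes in Control and KD-1, with vertical bars from the lowest to the highest library of each group (n = 3). The line of *Nes* goes down from 17.9 to 13.2 and is crossed by those of *Stmn2* and *Tubb3*, which end at 22.1 and 18.3.

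Ratios of 2 genes within a library do not depend on how the library is scaled, and 6 pairs were compared by an exact two-sided permutation test over the 6 libraries, which with 3 against 3 cannot give a p under 0.1. The log2 ratio of *Tubb3* to *Nes*, a neuronal over a progenitor gene, was -3.99, -3.84 and -3.84 in Control and -0.44, -0.54 and -0.61 in KD-1. The groups were apart by 3.36 on the log2 scale or 10.3-fold (exact permutation p = 0.1, adjusted over the 6 pairs 0.12). The log2 ratio of *Elavl4* to *Elavl3* went the other way, from 0.73, 1.49 and 2.13 in Control to -0.49, -0.44 and -0.37 in KD-1. *Elavl4* thus had more counts than *Elavl3* in each Control library and fewer in each KD-1 library (difference -1.88, exact permutation p = 0.1, adjusted 0.12).

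*Stmn2* and *Map2* kept more similar proportions to *Tubb3*, whereas *Dcx* rose more than *Tubb3* did (5.86 against 2.91 on the log2 scale, a pair that was not compared within libraries). The log2 ratio of *Stmn2* to *Tubb3* was 0.94, 0.77 and 0.71 in Control and 1.07, 1.13 and 1.18 in KD-1, a difference of 0.32. That of *Map2* to *Tubb3* was 0.32, 0.05 and -0.03 in Control and 0.49, 0.55 and 0.60 in KD-1, a difference of 0.43. Both differences were small beside the rises of the genes themselves, with groups that did not overlap (exact permutation p = 0.1 and adjusted 0.12 for each). The log2 ratio of *Dcx* to *Nes* rose to between -1.78 and -1.66 in KD-1, from -7.02 and -7.75 in the 2 Control libraries that had *Dcx* counts (exact permutation p = 0.1, adjusted 0.12), and the difference was 7.48 with the Control library at 0, where 0.5 stands in for the count. It was 5.66 without that library, and 8.58 and 8.21 without the Control library of lowest or of highest depth. The ratio of *Neurog2* to *Neurog1* rests on counts of 0 to 14 in Control and was not distinguishable between the groups (difference -2.81, exact permutation p = 0.4, adjusted 0.4).

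**Figure D3:**
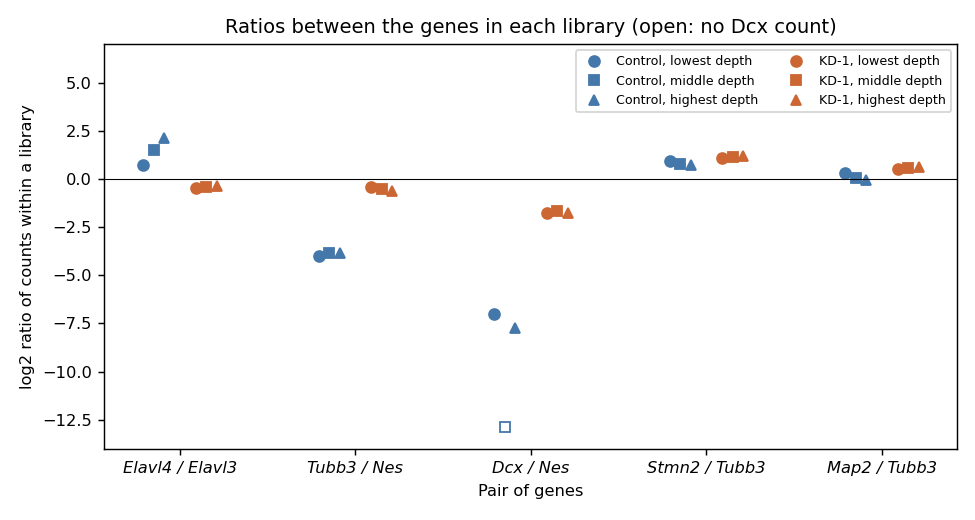
Log2 ratio of the counts of 2 genes within each library (0.5 added to each count) for 5 pairs, with Control in blue and KD-1 in orange. The ratio of *Elavl4* to *Elavl3* is above 0 in Control and below 0 in KD-1, and the open square marks the Control library with no *Dcx* count, whose place depends on the 0.5.

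Among all other genes tested with a mean log2 CPM above 1, the profile over the 6 libraries most like that of *Stmn2* was the profile of *Dclk1*, at a Euclidean distance of 0.132 between the centred log2 CPM values. *Dclk1* was also the nearest to *Map2* (0.204). *Pdzd4* was the nearest to *Tubb3* (0.123), *Tdh* to *Elavl4* (0.207) and *Ifnar1* to *Nes* (0.0526). The nearest genes to *Neurog2*, *Elavl3*, *Neurog1* and *Dcx* were farther off than that of *Nes* or *Tubb3*, at 0.220, 0.476, 0.484 and 0.921. These distances describe 6 libraries in 2 groups, in which any genes with like fold changes lie near each other.

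Relatives of these genes did not all move with them. Of 28 further genes of the same families, 27 were tested, 12 were called higher and 4 lower. Within the ELAVL family the neuronal *Elavl2* rose (log2 fold change 2.37), from 26.7 to 138 CPM, whereas the ubiquitous *Elavl1* (0.18) was not called. Among the stathmins *Stmn3* rose (1.36), and *Stmn1* (0.02) and *Stmn4* (-0.12) were not called. Of the beta-tubulins *Tubb2b* rose from 296 to 500 CPM (0.76), *Tubb6* fell (-1.39), and *Tubb2a* (0.09), *Tubb4a* (-0.50), *Tubb4b* (0.30) and *Tubb5* (-0.31) were not called. *Tubb2a* and *Tubb2b* are near-identical, so that their separate counts are uncertain. Without the Control library of middle depth *Tubb4a* was called lower (-0.71, edgeR adjusted p = 0.012).

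Of the microtubule-associated proteins *Map6* (1.78) and *Map1b* (1.66) rose, and *Map1a* (0.50), *Map4* (0.30) and *Mapt* (-0.07), which encodes tau, were not called. In the doublecortin family the kinase gene *Dclk1* rose from 3.02 to 29.9 CPM (3.31), whereas *Dclk2* fell from 80.2 to 46.7 CPM (-0.78). The relatives of *Nes* among the intermediate filament genes split. *Nefm* (4.83), *Ina* (3.96) and *Nefh* (2.72), which encode neuronal filament proteins, rose, the light chain *Nefl* (-1.84) and the muscle gene *Des* (-2.12) fell, and *Vim* (0.39), which encodes vimentin, was not called. *Nefl* went from 42.7 to 11.9 CPM, with no overlap of the groups.

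**Figure D4:**
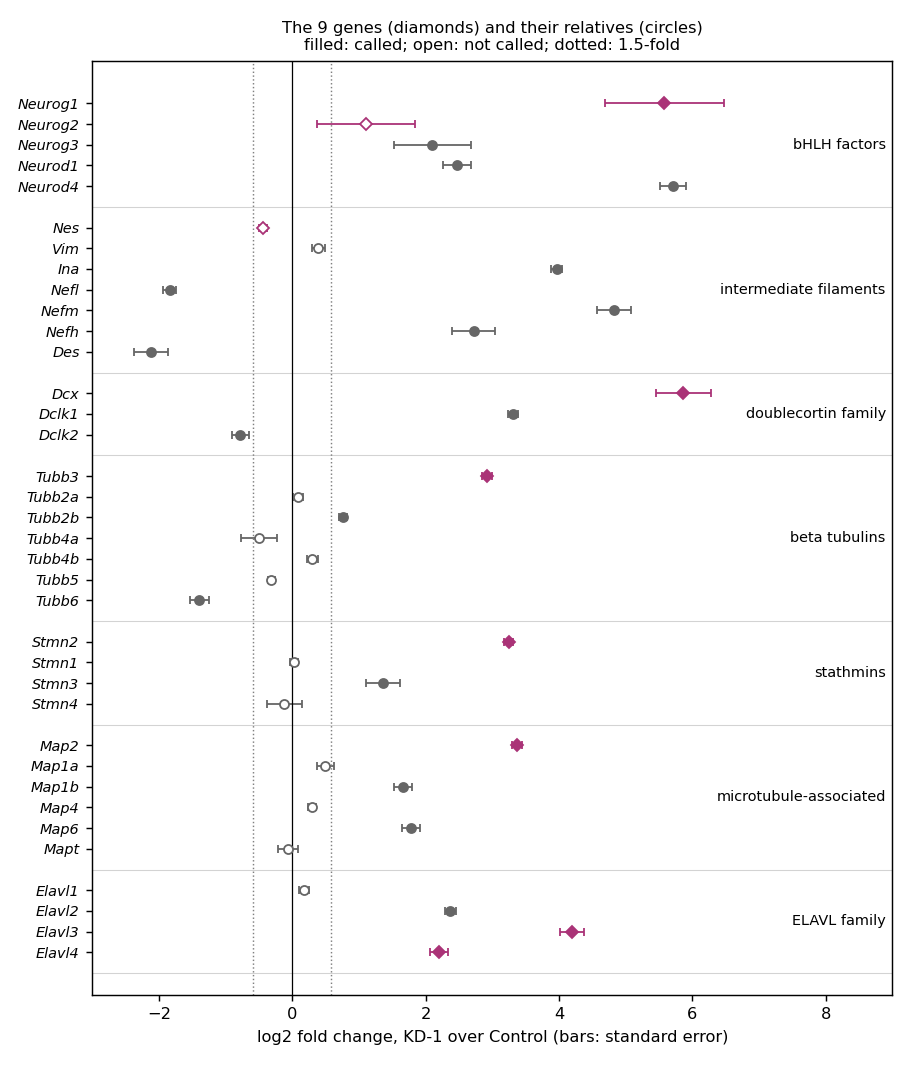
Log2 fold change of KD-1 over Control with its standard error for the 9 genes (diamonds) and for their relatives (circles), filled where the gene was called, with dotted lines at a 1.5-fold change. *Elavl1* (0.18) and *Stmn1* (0.02) lie near 0 while *Elavl3* (4.19) and *Stmn2* (3.24) lie far to the right.

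Of a list of 40 other cytoskeletal, RNA-binding and synaptic genes of neurons all 40 were tested, 26 were called higher and 4 lower, with a median log2 fold change of 1.21. The 3 rises with the largest fold were those of *Nefm*, which had 11, 55 and 39 counts in Control and 1128, 1132 and 2544 in KD-1, of *Ina*, which went from 4.85 to 75.5 CPM, and of *Celf3* (3.92), a splicing factor of neurons. Among the falls were those of *Nefl* and of the adhesion gene *Ncam1* (-1.15). *Rbfox3*, which encodes the mature neuron marker NeuN, had 0.380 CPM in Control and 0.666 in KD-1 and did not pass the test (edgeR adjusted p = 0.079).

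The 17 genes that restrain neuronal differentiation were all tested, with 2 called higher, 6 lower and a median log2 fold change of -0.41. *Notch1*, the receptor that holds progenitors back, fell from 81.4 to 21.03 CPM (-1.95), and *Ctdspl* (-1.76) and *Ctdsp2* (-0.95), phosphatases that work with the repressor REST, fell too. *Rest* itself, whose protein silences neuronal genes in other cells, rose from 96.5 to 203 CPM (1.08), as did the bHLH inhibitor *Id4* (1.99). Of 16 targets of proneural factors and Notch ligands 6 were called higher and 4 lower, with a median of 0.38. *Mfng* (1.52), a modifier of Notch, *Cxcr4* (1.32), a chemokine receptor, and *Gadd45g* (1.13) rose, and *Cbfa2t3* (-1.46), *Tbr1* (-1.27) and the cell cycle inhibitor gene *Cdkn1c* (-0.72) fell. Of the Notch ligand genes *Dll3* (-0.67) fell, and *Dll1* (-0.17) and *Dll4* (1.19) were not called. Without the Control library of middle depth *Dll3* came to -0.55, under the 1.5-fold threshold, and *Dll4* was called higher (2.16, edgeR adjusted p = 0.00054), as it was with limma-voom (1.53, adjusted p = 0.021). *Tbr1* lost its call with DESeq2 (adjusted p = 0.066), without the Control library of highest depth (-0.95) and without the KD-1 library of lowest (-1.22), middle (-1.40) or highest depth (-1.09). *Cdkn1c* came to -0.44, under the 1.5-fold threshold, without the Control library of middle depth.

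**Figure D5:**
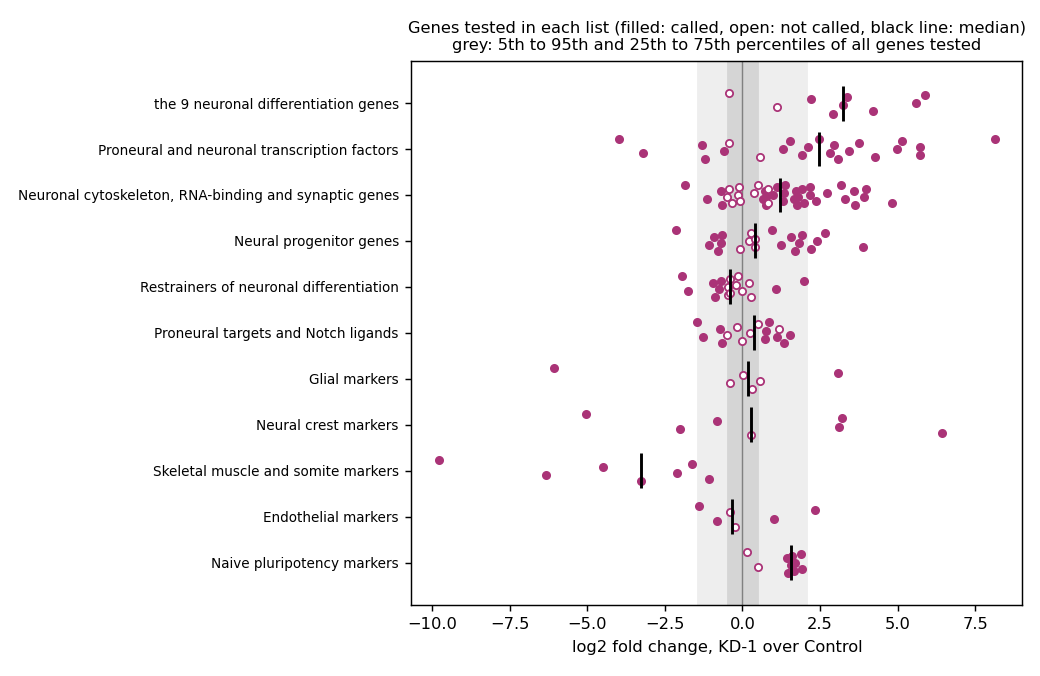
Log2 fold change of KD-1 over Control of each gene tested, by list, filled where called and with a black line at the median of the list. The grey bands hold the middle of all 15110 genes tested, and the lines of the 9 genes (3.24) and of the proneural and neuronal transcription factors (2.47) lie to the right of them.

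Markers of other cell types moved beside the neuronal genes, and their part in these results was not tested. The 10 naive pluripotency genes summed to between 437 and 488 CPM in Control and between 1429 and 1464 CPM in KD-1, with 8 called higher and 0 lower, led by *Prdm14* (1.90), *Esrrb* (1.87) and *Tfcp2l1* (1.68). The 10 skeletal muscle and somite genes summed to between 470 and 520 CPM in Control and between 46.1 and 46.6 CPM in KD-1. All 7 of them that could be tested fell, *Meox1* (-9.77), *Meox2* (-6.33) and *Actc1* (-4.50) the most, and the muscle determination genes *Myf5*, *Myod1* and *Myog* were too low to test in either group. Most of the somite sum in KD-1 was *Pax3*, which gave 89.7 CPM on average in Control and 42.2 CPM in KD-1.

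Of the 10 neural crest genes, whose lineage also makes neurons, 7 were tested, 3 were called higher and 3 lower. *Tfap2b* rose from 0.209 to 18.1 CPM (6.41), *Foxd3* (3.19) and *Tfap2a* (3.10) rose, and *Ets1* (-5.04), *Snai2* (-2.01) and *Sox9* (-0.82) fell. The defining gene *Sox10* was at 0 in all 3 Control libraries and had 3, 3 and 6 counts in KD-1. The summed crest level ran from 125 to 131 CPM in Control, where *Ets1* gave 112 CPM of it on average, and from 40.1 to 41.9 CPM in KD-1.

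Of the 10 glial genes 6 were tested, *Slc1a2*, which encodes a glutamate transporter, rose (3.06) and *Pdgfra*, which paraxial mesoderm also expresses, fell (-6.07). The astrocyte genes *Gfap* and *Aqp4* and the oligodendrocyte gene *Olig1* were too low to test. The glial sum ran from 87.9 to 115 CPM in Control and from 68.5 to 70.8 CPM in KD-1. On average *Pdgfra* gave 61.2 CPM of it in Control and 0.889 CPM in KD-1, whereas *Slc1a2* went from 2.72 to 22.8 CPM. The sum without *Pdgfra* was thus not lower in KD-1. The 10 endothelial genes summed to between 26.8 and 28.4 CPM in Control and between 39.7 and 42.4 CPM in KD-1. The sum rose through *Pecam1*, which mESCs also express and which went from 14.5 to 29.4 CPM on average. *Tek* (2.32) and *Pecam1* (1.02) were called higher, *Etv2* (-1.41) and *Kdr* (-0.83) were called lower and *Emcn* was at 0 in all 3 KD-1 libraries. *Etv2* lost its call with DESeq2 (adjusted p = 0.053), without the Control library of highest depth (-0.92) and without the KD-1 library of lowest (-1.61), middle (-1.25) or highest depth (-1.25), and *Kdr* without the KD-1 library of middle (-0.71) or highest depth (-0.85). Of the gastruloid lineage genes the neural genes *Sox2* (2.22) and *Sox1* (1.82) rose, *Sox2* being also a pluripotency gene, and the mesodermal and posterior genes *Tbx6* (-1.47) and *Cdx2* (-1.25) fell, *Tbx6* losing its call without the KD-1 library of highest depth (-1.29, edgeR adjusted p = 0.064).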

How the data were processed

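The 3 Control (NT) and 3 KD-1 libraries were made with the Illumina TruSeq kit and, per the study's methods and the submitters' processing notes (bcl2fastq, Salmon 1.1), quantified by Salmon against a Gencode gene model. The genome build, how transcripts were summed to genes and the use of strand are not given in the sources used here. The authors deposited Salmon's estimated counts per gene, that is expected counts without normalization, and the table holds them as whole numbers. Genes with near-identical copies or overlapping exons share reads, so their counts are uncertain. Columns of the table name the group but not the replicate, so libraries are named by depth. Symbols, positions and exon lengths were taken from GENCODE vM39 (GRCm39), which held 35222 of the 35565 identifiers, and promoters from RefSeq (GRCm38.p6). 

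Counts were filtered (filterByExpr), TMM-normalized and tested with edgeR 4.0.16 (quasi-likelihood test, robust) in R 4.3.3 over all 15110 genes that passed, with the Benjamini-Hochberg adjustment, and called at an adjusted p under 0.05 and a fold above 1.5 or under 0.667. Levels are TMM-normalized CPM. The SE is the size of the coefficient over the square root of F. The method was tested on simulated data, in which all genes shared the same variability. The changed genes there all lay above the mean levels of *Neurog1* and *Neurog2*, so changes at such low counts were not covered. DESeq2 1.42.0, limma 3.58.1 (voom), other normalizations, filters and thresholds, and leaving out each library were tried as alternatives. The 9 genes and all lists were chosen with earlier results of these data known. Besides the 9 genes, the called genes with the 3 largest rises and falls of each list (mean of at least 0.5 CPM in the higher group) and 4 genes with the nearest profiles were named, and any other gene as a member of its list or as a neighbour of *Map2*. A few list genes are not reported here by name. With sampling error alone, a count of 0 allows up to 3 counts.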

Additional observations from a re-analysis of the deposited data

How the results depend on the processing

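No paired analysis was possible because the columns of the table do not carry the replicate numbers of the labels, so no fit with the replicate as a block could be made. Of the 9 genes, 7 were called higher and 0 lower with DESeq2, limma-voom and each normalization, and whichever library was left out (7 to 7 higher, 0 to 0 lower). With at least 10 counts required in every library 6 of the 9 genes could be tested and 5 were called higher, since *Dcx*, *Neurog1* and *Neurog2* drop out. With no fold threshold 1 gene, *Nes*, was called lower. *Neurog2* stayed uncalled, with an adjusted p from 0.09 to 0.52, and the log2 fold change of *Neurog1* ran from 4.76 to 7.82. Of the lists, the transcription factors had 8 calls (5 higher, 3 lower) among 10 tested with at least 10 counts in every library, against 16 higher and 5 lower of 23. The restrainers had 4 calls with a log2 threshold of 1 and 5 with glmTreat, and the proneural targets and Notch ligands 5 with either. The glial genes had 4 calls without a filter and 4 without a fold threshold, and the endothelial genes 7 without a filter and 2 with glmTreat. These settings themselves change the number of genes tested or the threshold. Of single genes named, *Isl1*, *Tbr1*, *Dll3*, *Cdkn1c*, *Sox9*, *Etv2*, *Kdr*, *Pikfyve* and *Dclk2* were no longer called with glmTreat, *Tbr1* also lost its call without a filter (adjusted p = 0.066), and *Hoxb8*, *Ctdsp2*, *Dll3*, *Cdkn1c*, *Sox9*, *Kdr*, *Pikfyve*, *Tubb2b* and *Dclk2* were not past a log2 threshold of 1. *Hoxb9*, *Idh1*, *Tubb4b*, *Tubb5*, *Map1a*, *Map4* and *Vim* were called only with no fold threshold. The log2 fold change of *Stmn1*, which was not called, ran from -0.023 (without the Control library of lowest depth) to 0.063 when each library was left out, and that of *Stmn4*, also not called, from -0.18 to 0.020 (without the KD-1 library of highest depth). Leaving out a library gave no other change of direction among the genes named here. The median log2 fold change of all genes was 0.01, -0.03 and 0.04 with RLE, upper-quartile and no composition scaling. Low counts limit *Neurog1*, *Neurog2* and, in Control, *Dcx*.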
